A study of Homo sapiens with 6 samples.

Results

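The genes described here are 10 protein-coding genes that lie beside FAL-1 on the long arm of human chromosome 1, in band 1q21. They are RPRD2, TARS2, ECM1, ADAMTSL4, ENSA, GOLPH3L, CTSS, CTSK, ARNT and SETDB1. The choice was by name, as neighbours of the locus, with earlier results of these data known. All 10 were measured, by 12 probe sets, among 18418 genes in all. The study used A2780, an established cell line from a human ovarian cancer, with 6 arrays in all, and grew it with 10% fetal bovine serum. Cells were infected with lentivirus carrying a short hairpin RNA (shRNA), which lowers a chosen transcript, and the virus medium was replaced after 24 hours. RNA was taken 96 hours after infection. The groups were FAL-1 shRNA1 and FAL-1 shRNA2, with a FAL-1 control of their own, and BMI1 shRNA1 and BMI1 shRNA2, with a BMI1 control of their own. Each hairpin and each control had 1 array, so n = 2 hairpins against 1 control for each of 2 targets. What the control hairpins contained is not stated in the labels, and separate cultures are not described. The p-values measure only the spread between the arrays of the 2 different hairpins of each target. How much of that spread is technical cannot be told.

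FAL-1, whose gene symbol is FALEC, is a long non-coding RNA from a region that is often gained in tumours, and it is known for binding BMI1, a subunit of Polycomb repressive complex 1. RefSeq also lists FALEC under the name ncRNA-a1. Under that name it was described in other human cells as an enhancer-like RNA whose depletion lowers ECM1, the gene next to it. Long non-coding RNAs can act on neighbouring genes, or away from their own locus through a protein partner. On GRCh38.p14, ECM1 is the nearest protein-coding gene on one side of FALEC and ADAMTSL4 the nearest on the other. TARS2 and RPRD2 lie beyond ECM1. MCL1, ENSA, GOLPH3L, HORMAD1, CTSS, CTSK, ARNT and SETDB1 follow ADAMTSL4 in that order.

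The sequences before the starts of the flanking genes are shown because these are the promoters next to the FALEC gene on each side. Each is the 250 bases before the gene's start in RefSeq on GRCh38.p14, on the plus strand. ECM1 is at chr1:150507859-150508108 and ADAMTSL4 at chr1:150549158-150549407. Capitals mark the letters GGGCGG, the core of a GC box, searched on both strands.
ECM1: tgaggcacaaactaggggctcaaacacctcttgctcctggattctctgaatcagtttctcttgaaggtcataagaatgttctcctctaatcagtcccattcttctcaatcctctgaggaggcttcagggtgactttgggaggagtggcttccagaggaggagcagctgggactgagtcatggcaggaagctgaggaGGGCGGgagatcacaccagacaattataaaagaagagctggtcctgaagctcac
ADAMTSL4: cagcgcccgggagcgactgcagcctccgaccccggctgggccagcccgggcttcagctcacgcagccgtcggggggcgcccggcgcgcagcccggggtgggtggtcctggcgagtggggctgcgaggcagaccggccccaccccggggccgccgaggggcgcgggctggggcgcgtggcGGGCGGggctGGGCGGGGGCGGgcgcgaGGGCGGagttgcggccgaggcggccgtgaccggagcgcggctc
The windows differ in composition, with G or C at 50.4% of bases before ECM1 and 83.6% before ADAMTSL4. ECM1 holds 1 match to GGGCGG and ADAMTSL4 holds 4, none of which overlap. Of all 35116 such windows, 42.6% hold a match. Neither window holds ACGTG (the core bound by ARNT with its hypoxia-inducible partners), CCAAT or TTTGAA, which 18.5%, 32.0% and 13.3% of all windows hold. Among the 8 genes of the locus with a promoter in the table, ACGTG was found before 3 (TARS2, ENSA and SETDB1), CCAAT before 5, GGGCGG before 3 and TTTGAA before 0. These counts are by gene, with a match in any window counted, and ENSA and SETDB1 have more than 1 window. The shares are by window, so the measures differ. Of the 20111 windows of measured genes, 20.3% hold ACGTG, 32.6% CCAAT, 54.7% GGGCGG and 10.9% TTTGAA. In SETDB1 the ACGTG matches of the plus and minus strands overlap. CTSS and CTSK were not in the table. These matches describe letters in the window only.

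The arrays had a median log2 value between 6.94 and 7.09. Over all probe sets, Pearson's r was 0.985 to 0.995 between arrays that share a target and 0.973 to 0.987 otherwise. FAL-1 hairpin 2 stood apart: 11.2% of genes differed from the FAL-1 control by 1.5-fold or more with it, beside 2.51% with FAL-1 hairpin 1. BMI1 read 8.73 and 9.99 with the BMI1 hairpins, against 10.64 in the BMI1 control, on a probe set shared with the readthrough COMMD3-BMI1. No probe set in use carried the symbol FALEC, and FAL-1 itself was therefore not measured. Of the epithelial and ovarian markers, KRT8 and KRT18 averaged 9.77 and 9.06 over the arrays. The other 10, which include the Müllerian factor PAX8 and the ovarian antigen MUC16, averaged between 5.89 and 6.88. The summed linear level of all 12 was 1776 and 4104 with the FAL-1 hairpins, against 1942 in the FAL-1 control, and 2136 and 2756 with the BMI1 hairpins, against 2108 in the BMI1 control, so it was high with FAL-1 hairpin 2. On that array KRT8, KRT18 and KRT19 read 11.07, 9.47 and 8.57, against 9.28, 8.79 and 6.72 in the FAL-1 control. PAX8 read 6.98 against 6.76 and CDH1 6.09 against 5.89. The sum is weighted to the brightest keratins and does not show a rise of the whole set. The 7 measured blood and endothelial markers averaged between 5.06 and 6.51. No detection calls were used, so these values do not show whether a marker is expressed.

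Of the 10 locus genes, ECM1 alone differed by 1.5-fold or more in the same direction with both FAL-1 hairpins. ECM1 encodes extracellular matrix protein 1, a secreted glycoprotein that binds other matrix proteins and is needed for normal skin. It read 8.09 and 8.52 with FAL-1 hairpins 1 and 2, against 7.37 in the FAL-1 control. With BMI1 hairpins 1 and 2 it read 6.88 and 7.00, against 6.87 in the BMI1 control. Both FAL-1 hairpin arrays were thus above the other 4, as they were for 13.6% of all genes, and the FAL-1 control was itself above all BMI1 arrays. Arrays read pooled RNA, so more cells with ECM1 RNA and more ECM1 RNA per cell cannot be told apart.

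Against its own control, ECM1 was higher by 0.72 and 1.15 on the log2 scale with the FAL-1 hairpins, a mean of 0.93 ± 0.30 (SD, n = 2 hairpins), or 1.91-fold. limma's moderated test gave a standard error of 0.22, a 95% interval of 0.34 to 1.53, an unadjusted p of 0.011 and an adjusted p of 0.999, so ECM1 did not pass over all genes. No gene did: limma called 0 of 18418 (0%) with FAL-1 knockdown, and 3.06% had an unadjusted p under 0.05. Both FAL-1 hairpins were higher by 1.5-fold or more for 0.576% of all genes. Ranked by the smaller of its hairpin changes, ECM1 was 44th of 18418 genes on the higher side.

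With BMI1 hairpins ECM1 differed from the BMI1 control by 0.01 and 0.13, a mean of 0.07 ± 0.08 (SD, n = 2 hairpins; limma adjusted p = 0.9998). The FAL-1 change minus the BMI1 change was 0.86 with a standard error of 0.31. That difference had an unadjusted p of 0.046 and did not pass over all genes (limma adjusted p = 0.9999). The control array matters here, because ECM1 was higher by 0.50 in the FAL-1 control than in the BMI1 control. Against the BMI1 control the mean with FAL-1 hairpins was 1.43, and against the FAL-1 control the mean with BMI1 hairpins was -0.43. The arrays of the targets differ in more than ECM1, and the part of that difference in these values was not tested. Without FAL-1 hairpin 2, the array that stands apart, ECM1 was at 0.72, a value that rests on 1 hairpin array and 1 control array. The summed epithelial and ovarian markers were at 1776 with hairpin 1 and 1942 in the FAL-1 control. Whether they bear on ECM1 was not tested.

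**Figure D1:**
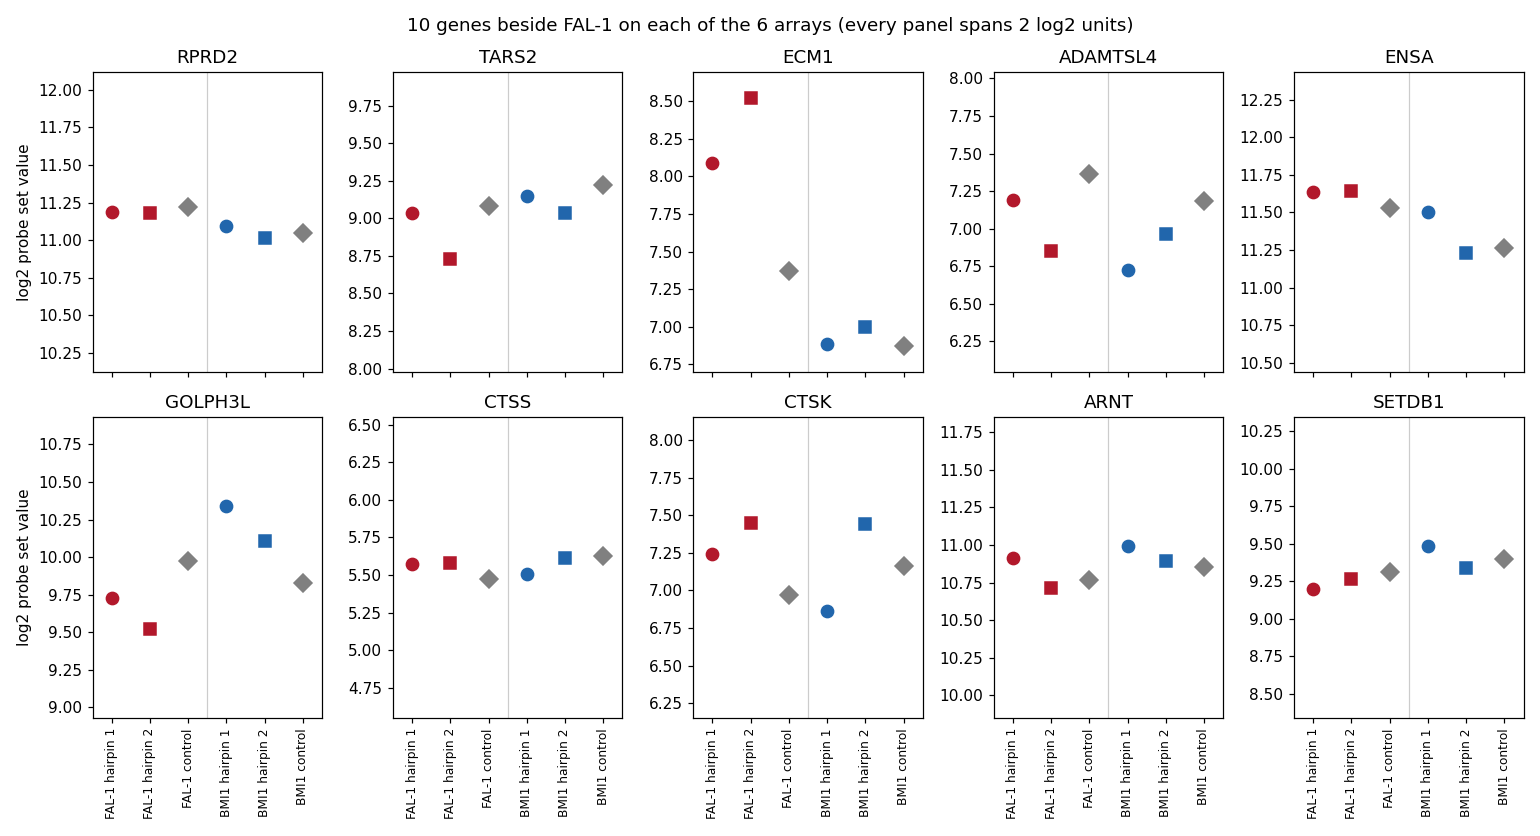
Log2 probe set value (vertical axis) of each of the 10 locus genes on each of the 6 arrays, with FAL-1 arrays left and BMI1 arrays right of the grey line, circles for hairpin 1, squares for hairpin 2 and grey diamonds for controls. Every panel spans the same number of log2 units; ECM1 reads 8.09 and 8.52 with the FAL-1 hairpins, above 7.37 in their control, while 6 of the genes stay within 0.5 log2 units over all arrays.

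ADAMTSL4, on the other side of FALEC, encodes a secreted protein that associates with fibrillin microfibrils of the matrix and holds the lens of the eye in place. It read 7.19 and 6.85 with the FAL-1 hairpins, against 7.36 in the FAL-1 control, and 6.72 and 6.97 with the BMI1 hairpins, against 7.18 in the BMI1 control. All 4 hairpin arrays were below their own control. The log2 changes were -0.17 and -0.51 with FAL-1 hairpins and -0.46 and -0.22 with BMI1 hairpins. Their means were close to each other, at -0.34 ± 0.24 and -0.34 ± 0.17 (SD, n = 2 hairpins each), and neither passed limma's test (unadjusted p = 0.175 and 0.180). The FAL-1 change minus the BMI1 change was -0.0049, with a standard error of 0.30. That closeness depends on the controls: against the other target's control the means were -0.16 with FAL-1 and -0.52 with BMI1 hairpins, and their difference was 0.36. Against the FAL-1 control the flanking genes of FALEC had opposite signs with FAL-1 hairpins. Only for ECM1 did the values with both hairpins exceed 1.5-fold. The limma interval of the FAL-1 change of ADAMTSL4 spanned 0, from -0.91 to 0.22. Against the BMI1 control, ADAMTSL4 was at 0.0074 with FAL-1 hairpin 1 and -0.33 with FAL-1 hairpin 2.

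GOLPH3L and ENSA lie further along. GOLPH3L encodes a Golgi membrane protein related to the phosphoinositide-binding protein GOLPH3. It read 9.73 and 9.52 with the FAL-1 hairpins, against 9.98 in the FAL-1 control, and 10.34 and 10.11 with the BMI1 hairpins, against 9.83 in the BMI1 control. The hairpins of the targets were on opposite sides of their controls, by -0.25 and -0.45 with FAL-1 hairpins and by 0.51 and 0.28 with BMI1 hairpins. Such opposite sides were seen for 10.8% of all genes. The mean changes were -0.35 ± 0.14 and 0.40 ± 0.17 (SD, n = 2 hairpins each). Their difference was -0.75 with a standard error of 0.25, an unadjusted p of 0.037 and an adjusted p of 0.9999 in limma. GOLPH3, its paralog, read 10.46 and 10.52 with the FAL-1 hairpins, against 10.43 in their control, and had mean log2 changes of 0.05 with FAL-1 and 0.04 with BMI1 knockdown.

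ENSA encodes a small inhibitor of the phosphatase PP2A-B55 that is switched on by the Greatwall kinase at entry into mitosis. Its brightest probe set read 11.64 and 11.64 with the FAL-1 hairpins, against 11.53 in the FAL-1 control, and 11.50 and 11.23 with the BMI1 hairpins, against 11.26 in the BMI1 control. The FAL-1 changes were 0.11 and 0.11, and the BMI1 changes 0.24 and -0.03. Of the 3 ENSA probe sets, the mean FAL-1 changes were 0.08, 0.11 and 0.10, and the mean BMI1 changes -0.0017, 0.10 and 0.11. Both FAL-1 arrays of ENSA were above the other 4 arrays, as for ECM1, yet the distance to the FAL-1 control was small. The limma interval for its FAL-1 change ran from -0.34 to 0.56.

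CTSS and CTSK are adjacent genes for cathepsins S and K, cysteine proteases of lysosomes. Cathepsin S is known for antigen processing and cathepsin K for collagen breakdown by osteoclasts. CTSS read 5.57 and 5.58 with the FAL-1 hairpins, against 5.47 in the FAL-1 control, and 5.51 and 5.62 with the BMI1 hairpins, against 5.63 in the BMI1 control. Its whole range over the arrays was 0.16 log2 units, the narrowest of the 10 genes, and its mean level was at the 10.7th percentile of genes. Whether the probe set reads above background was not tested.

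CTSK read 7.24 and 7.45 with the FAL-1 hairpins, against 6.97 in the FAL-1 control, and 6.86 and 7.44 with the BMI1 hairpins, against 7.16 in the BMI1 control. Both FAL-1 hairpins were above their control, by 0.27 and 0.47, and the BMI1 hairpins lay on either side of theirs, by -0.30 and 0.28. The mean FAL-1 change was 0.37 ± 0.14 (SD, n = 2 hairpins; limma unadjusted p = 0.252), and against the BMI1 control it was 0.18. BMI1 hairpin 2 reached the same level as FAL-1 hairpin 2, so the arrays of the targets overlapped.

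The nuclear genes of the locus stayed close to their controls. ARNT encodes the dimer partner of the hypoxia-inducible factors and of the dioxin receptor. It read 10.92 and 10.71 with the FAL-1 hairpins, against 10.77 in the FAL-1 control, and 10.99 and 10.89 with the BMI1 hairpins, against 10.85 in the BMI1 control. Its FAL-1 hairpins were on either side of the control, by 0.15 and -0.06.

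SETDB1 encodes a methyltransferase for lysine 9 of histone H3 that silences retroelements, and it is often gained in tumours. It read 9.20 and 9.27 with the FAL-1 hairpins, against 9.31 in the FAL-1 control, and 9.49 and 9.34 with the BMI1 hairpins, against 9.40 in the BMI1 control. RPRD2 encodes a protein that binds the tail of RNA polymerase II. It read 11.18 and 11.18 with the FAL-1 hairpins, against 11.22 in the FAL-1 control, and 11.09 and 11.02 with the BMI1 hairpins, against 11.05 in the BMI1 control. Mean FAL-1 changes were -0.08 for SETDB1 and -0.04 for RPRD2. For both genes the limma interval of the FAL-1 change spanned 0, from -0.46 to 0.30 for SETDB1 and from -0.39 to 0.30 for RPRD2.

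TARS2, the mitochondrial threonyl-tRNA synthetase, lies just beyond ECM1. It read 9.04 and 8.73 with the FAL-1 hairpins, against 9.08 in the FAL-1 control, and 9.15 and 9.04 with the BMI1 hairpins, against 9.22 in the BMI1 control. All 4 hairpin arrays were below their own control, and FAL-1 hairpin 2 was the lowest array. The changes were -0.04 and -0.35 with FAL-1 hairpins and -0.07 and -0.18 with BMI1 hairpins. Mean changes were -0.20 ± 0.22 and -0.13 ± 0.08 (SD, n = 2 hairpins each), without passing limma's test (unadjusted p = 0.336 and 0.526).

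GOLPH3L, SETDB1 and TARS2 were lower on both FAL-1 hairpin arrays than on the other 4 arrays, as 6.4% of all genes were. For TARS2 this rests on a near tie, 9.037 with FAL-1 hairpin 1 against 9.038 with BMI1 hairpin 2. For SETDB1 the margin was also small, 9.27 with FAL-1 hairpin 2 against 9.31 in the FAL-1 control. The median FAL-1 change over the 10 genes was 0.0019, beside 0.03 over all genes, and the median BMI1 change was 0.01, beside 0.0062 over all genes. With both FAL-1 hairpins 4 of the 10 were above the control, where 37.2% of all genes were, and 5 were below, where 27.7% were. With both BMI1 hairpins 3 were above (32.9% of all genes) and 3 below (30.7%). At 1.5-fold or more with both hairpins there was 1 gene with FAL-1, ECM1, where 1.21% of all genes were, and 0 with BMI1, where 1.44% were. Leaving out ECM1, the other 9 had mean changes between -0.35 and 0.37 with FAL-1 knockdown, and between -0.34 and 0.40 with BMI1 knockdown. limma called 0 of 18418 genes with BMI1 knockdown (2.59% at an unadjusted p under 0.05) and 0 for the difference between targets (0.804%).

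**Figure D2:**
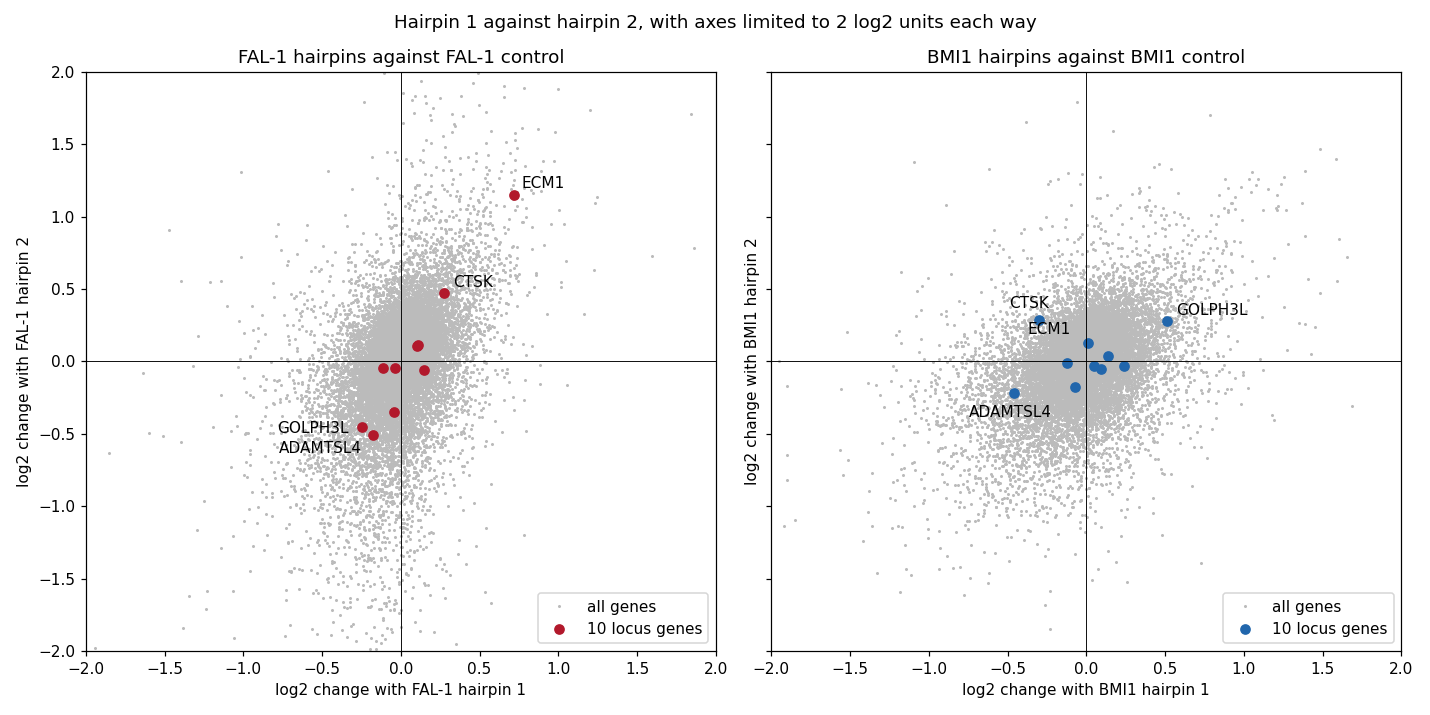
Log2 change against the target's own control with hairpin 1 (horizontal axis) and hairpin 2 (vertical axis), for FAL-1 on the left and BMI1 on the right; grey points are all genes and coloured points the 10 locus genes, with 36 and 6 genes outside the axes. ECM1 lies at 0.72 and 1.15 with FAL-1 hairpins, away from the other 9, and at 0.01 and 0.13 with BMI1 hairpins; hairpins of a target share 1 control, which by itself pulls points toward the rising diagonal.

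A wider window held the 15 protein-coding genes on each side of FALEC, of which 27 of 30 were measured. ECM1 had the highest mean FAL-1 change of the 27, and the other 26 lay between -0.54 and 0.37. With both FAL-1 hairpins 7 of the 27 were above the control and 10 below, beside 37.2% and 27.7% of all genes. The median FAL-1 change was 0.01 (0.02 with hairpin 1 and -0.04 with hairpin 2). With both BMI1 hairpins 8 were above and 8 below, beside 32.9% and 30.7% of all genes. Between ADAMTSL4 and ENSA lies MCL1, an inhibitor of apoptosis, which read 11.31 and 11.56 with the FAL-1 hairpins, against 11.32 in the FAL-1 control, and 11.10 and 11.12 with the BMI1 hairpins, against 10.94 in the BMI1 control. HORMAD1, a meiotic chromosome protein, lies between GOLPH3L and CTSS and stayed between 4.97 and 5.18 on all arrays.

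Outside the 10 genes, CA14, a carbonic anhydrase, and C1orf54 had the largest changes with both FAL-1 hairpins on one side, ranked by the smaller of the hairpin changes. CA14 read 8.80 and 8.90 with the FAL-1 hairpins, against 9.20 in the FAL-1 control, a mean log2 change of -0.35 ± 0.07 (SD, n = 2 hairpins). The unadjusted p of limma for that change was 0.434. The BMI1 hairpins lay on either side of their control for CA14, by -0.18 and 0.76. C1orf54 had FAL-1 changes of -0.21 and -0.87, so most of its mean came from hairpin 2. MTMR11, at the edge of the window and named after its values were seen, was the only one of the 27 with an unadjusted p under 0.05 for BMI1 knockdown, at 0.49 and 0.53, against 0.01 and 0.03 with FAL-1 hairpins. That contrast depends on the control arrays, because MTMR11 was higher by 0.76 in the FAL-1 control than in the BMI1 control. Against the BMI1 control its mean with FAL-1 hairpins was 0.78. None of CA14, C1orf54 and MTMR11 passed limma's test over all genes (adjusted p of at least 0.999).

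**Figure D3:**
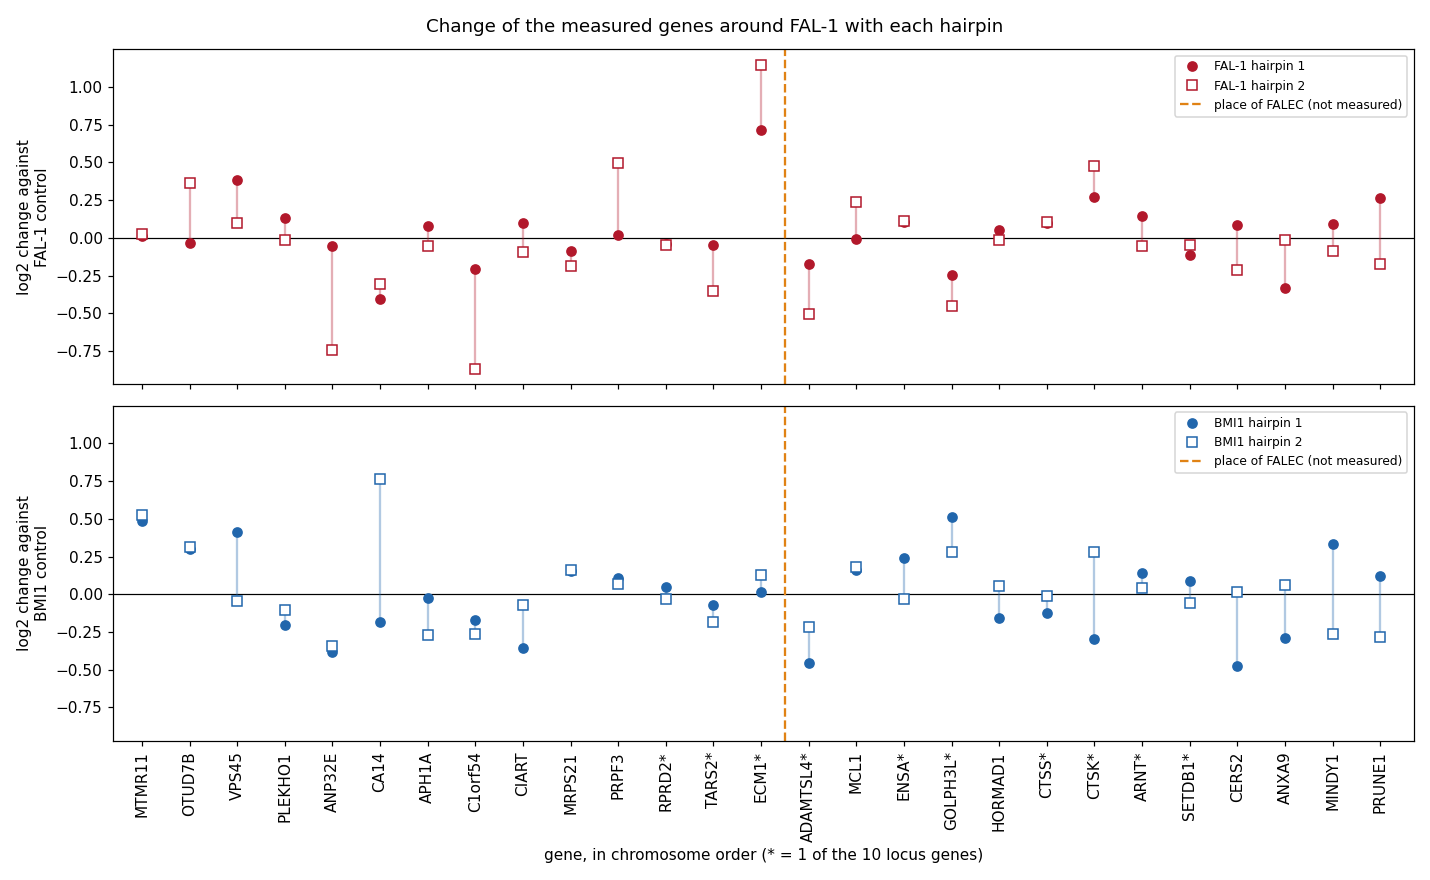
Log2 change against the target's own control (vertical axis) for the 27 measured genes around FALEC in chromosome order (horizontal axis), with FAL-1 hairpins above and BMI1 hairpins below; filled circles are hairpin 1, open squares hairpin 2, and the dashed line is the place of FALEC. ECM1, next to FALEC, stands at 0.72 and 1.15 with the FAL-1 hairpins, and ADAMTSL4 on the other side at -0.17 and -0.51.

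The likeness of gene patterns was measured as the root mean square difference of gene-centred log2 values over the 6 arrays. The genes most like ECM1, which also had the widest range of the 10 at 1.65 log2 units, were ASB2 (0.12), USP27X (0.13) and RFPL4A (0.15). ASB2, a ubiquitin ligase subunit, read 6.88 and 7.46 with the FAL-1 hairpins, against 6.44 in the FAL-1 control, and 6.05 and 5.90 with the BMI1 hairpins, against 5.93 in the BMI1 control. Like ECM1, ASB2 was higher in the FAL-1 control than on any BMI1 array. Because ASB2 was chosen by likeness over these same arrays, that shared order is not a separate result. Of 18417 other genes, ADAMTSL4 ranked 12882nd in likeness to ECM1, TARS2 16191st and GOLPH3L 17412th. ENSA, the nearest among the 10 locus genes, ranked 2013th, while MCL1, outside the 10 but between ADAMTSL4 and ENSA, ranked 994th. ENSA and MCL1 were higher in the FAL-1 control than in the BMI1 control, by 0.27 and 0.38, as ECM1 was by 0.50. The part of that difference in the ranks was not tested. The genes most like ADAMTSL4 were CMSS1 (0.03), HCN3 (0.04) and ENO3 (0.04), the last a muscle enolase. Over 6 arrays such ranks describe these arrays only.

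Relatives and partners of the locus genes were described from lists. Among 10 measured ADAMTS-like, fibrillin and ECM1-binding genes, 5 were above the control with both FAL-1 hairpins and 3 below, with a median of 0.17, while 3 were above and 1 below with both BMI1 hairpins (median -0.0029). The FAL-1 median was 0.03 with hairpin 1 and 0.35 with hairpin 2, so it came mostly from hairpin 2, and the BMI1 median was -0.12 with hairpin 1 and 0.11 with hairpin 2. FBN1, fibrillin 1, had log2 changes of 0.28 and 0.38 with FAL-1 hairpins. FBLN1, fibulin 1, which binds ECM1, was lower with all hairpins, by -0.30 and -0.95 with FAL-1 and by -0.58 and -0.82 with BMI1. None of the 10 passed limma's test in either comparison.

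Among the 12 cysteine cathepsins and cystatins, 7 were above the control with both FAL-1 hairpins and 4 below (median 0.06). CTSB, cathepsin B, had FAL-1 changes of 0.50 and 0.43 (limma unadjusted p = 0.026, adjusted p = 0.999), and BMI1 changes of 0.08 and -0.06. CTSV, cathepsin V, was lower with all hairpins, by -0.41 and -1.43 with FAL-1 and by -0.47 and -0.49 with BMI1. Of the 4 measured Golgi phosphoinositide genes, 3 were above and 1 below. PI4KB, a phosphatidylinositol 4-kinase that is itself on 1q21, had FAL-1 changes of 0.47 and 0.66 (limma unadjusted p = 0.032, adjusted p = 0.999). SACM1L, the phosphatase that removes the product of PI4KB, had FAL-1 changes of -0.43 and -0.25.

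Among the 10 Greatwall and PP2A-B55 genes, 2 were higher and 2 lower with both FAL-1 hairpins (median -0.05, with -0.08 for hairpin 1 and 0.0098 for hairpin 2). ARPP19, the paralog of ENSA, had FAL-1 changes of 0.11 and -0.08. PPP2CB and PPP2R1A, phosphatase subunits, had FAL-1 changes of 0.21 and 0.47, and of 0.20 and 0.25. Of the 12 measured bHLH-PAS genes, the family of ARNT, 6 were above and 2 below (median 0.05, with -0.03 for hairpin 1 and 0.13 for hairpin 2). ARNT2 had -0.41 and -0.24, and HIF3A 0.23 and 0.34. EPAS1, hypoxia-inducible factor 2 alpha, was named after its values were seen: it read 6.87 and 8.51 with the FAL-1 hairpins, against 6.79 in the FAL-1 control, so its mean log2 change of 0.90 came mostly from hairpin 2.

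Among the 14 genes of H3K9 methylation, 4 were higher and 6 lower with both FAL-1 hairpins (median -0.15), and 2 higher and 8 lower with both BMI1 hairpins (median -0.19). The FAL-1 median was 0.02 with hairpin 1 and -0.28 with hairpin 2, so its sign rests on hairpin 2. SETDB2 had FAL-1 changes of -0.27 and -0.67, and TRIM28, the corepressor that recruits SETDB1, 0.16 and 0.16. Of the 8 RNA polymerase II tail genes, 2 were above and 3 below (median -0.07, with 0.07 for hairpin 1 and -0.11 for hairpin 2). CTDSP2 had -0.24 and -0.33, and CTDP1 0.18 and 0.53. The list for TARS2 holds the mitochondrial aminoacyl-tRNA synthetases and the other threonyl-tRNA synthetases, without the rest of the cytosolic enzymes. Of its 17 measured genes, 2 were higher and 9 lower with both FAL-1 hairpins (median -0.20), and 1 higher and 12 lower with both BMI1 hairpins (median -0.12). NARS2 had -0.30 and -0.54, and IARS2 -0.28 and -0.50 with FAL-1 hairpins. The FAL-1 median of this list was -0.0075 with hairpin 1 and -0.27 with hairpin 2, so it came mostly from the array that stands apart. No gene of these lists passed limma's test over all genes, and their counts stand beside shares over all genes of 37.2% (higher) and 27.7% (lower) with FAL-1, and 32.9% and 30.7% with BMI1.

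**Figure D4:**
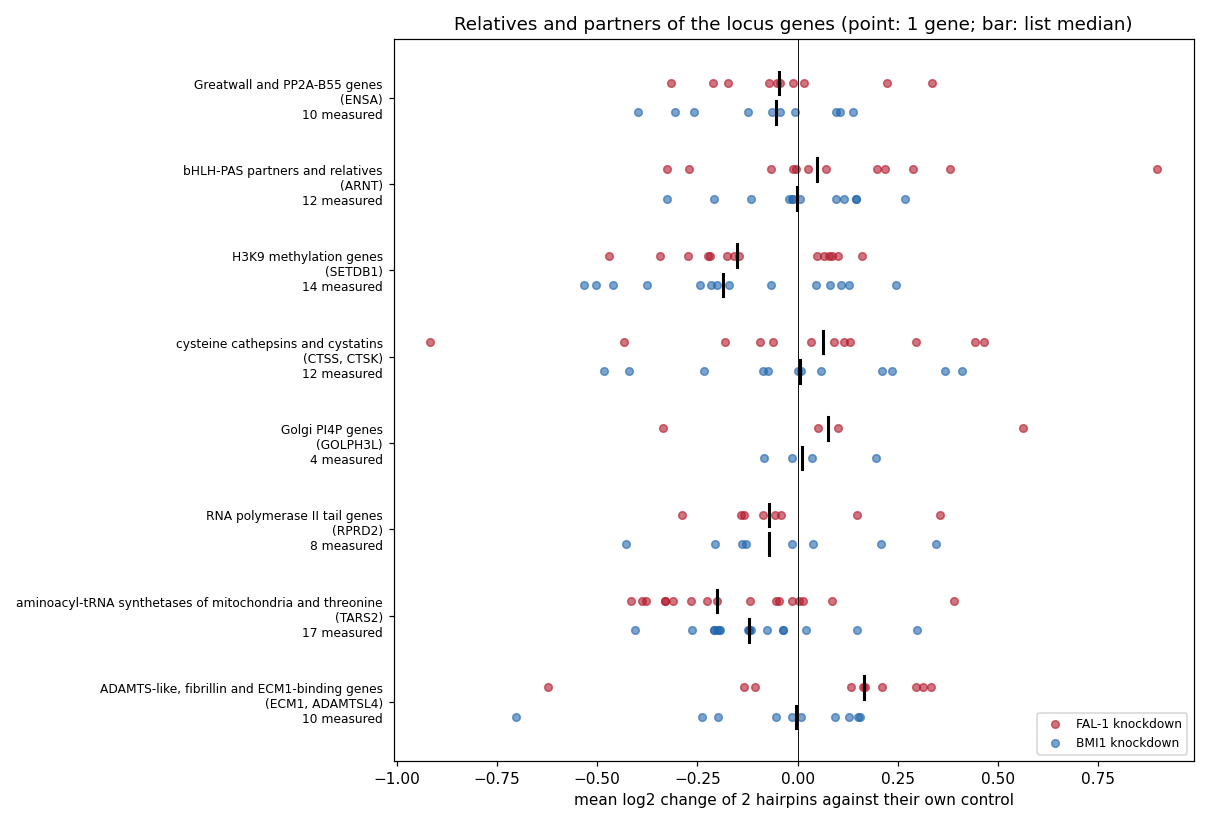
Mean log2 change of the 2 hairpins against their own control (horizontal axis) for genes related to the locus genes, by list (vertical axis), with FAL-1 knockdown in red above BMI1 knockdown in blue; each point is 1 gene and the black bar is the list median. Medians lie between -0.20 and 0.17 with FAL-1 knockdown and between -0.19 and 0.01 with BMI1 knockdown, and single genes such as CTSV at -0.92 and EPAS1 at 0.90 lie farther out.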

How the data were processed

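The values come from 1 deposited table with 33252 probe sets and 6 arrays. They were taken as log2 because they span a log2 range, and the authors' RMA (background correction, normalization and summary of probes) is named in the submitters' processing notes, without a version. Whether RMA was run on all arrays at once is not stated. Per the labels' protocols, total RNA was amplified and its cDNA labelled for Affymetrix arrays, with 1 colour.

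A platform annotation named the probe sets. It gave 1 symbol to 19460 and several to 1754, and did not list 12038. Those with several were dropped, except the BMI1 probe set. The brightest probe set stood for a gene, which gave 18418 genes. Of the 10 locus genes, 9 had 1 probe set and ENSA had 3. Gene order and promoters are from RefSeq on GRCh38.p14, since no build of the array was stated. Motifs were searched in the 250 bases before each start, on both strands.

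limma 3.58.1 in R 4.3.3 (lmFit, eBayes) fitted a mean for each of the 4 groups to all 6 arrays. Tests were two-sided, and p-values were adjusted by Benjamini-Hochberg across all genes with a threshold of 0.05. Only the hairpin pairs give a spread, which was taken to hold for the single controls too. The number of arrays limits the precision. An exact permutation test was not used, because 1 control against 2 hairpins cannot reach 0.05. matplotlib 3.10.9 under Python 3.11.15 drew the figures.

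The locus genes and the lists were chosen with earlier results of these data known. Named genes are all 10 locus genes, MCL1, HORMAD1, BMI1, and from each list any gene past the threshold and the 2 with the largest smaller hairpin change on one side with both FAL-1 hairpins. The 3 genes most like ECM1 and ADAMTSL4 were named too, and the paralogs GOLPH3 and ARPP19 for comparison. Protein sequences were not used here. The alternatives varied the control array, normalization (quantile or cyclic loess), the rule for several probe sets, a filter at the 30th percentile, the variance model (trend or robust), a block for hairpin number, the hairpins included and the thresholds.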

Additional observations from a re-analysis of the deposited data

Results flagged for a closer look

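For 2 of the locus genes both FAL-1 hairpins lay on one side of their control and both BMI1 hairpins on the other. GOLPH3L had a FAL-1 change minus BMI1 change of -0.75 on the log2 scale (standard error 0.25). CTSS had a difference of 0.17 (standard error 0.19). Opposite sides were seen for 10.8% of all genes. Neither difference passed limma's test over all genes (adjusted p = 0.9999 for both), and their unadjusted p-values were 0.037 and 0.411. Over the alternatives the difference for GOLPH3L stayed between -0.86 and -0.45, with an adjusted p between 0.415 and 1, and for CTSS the sign changed with the control array.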

How the results depend on the processing

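limma called 0 genes in each of the FAL-1, BMI1 and difference comparisons under every alternative run, from 0 to 0 when a hairpin was left out. With FAL-1 knockdown ECM1 was positive in 14 of 14 alternatives, between 0.72 and 1.43, and did not pass over all genes in any. The FAL-1 minus BMI1 difference for ECM1 was positive in 14 of 14, between 0.65 and 1.86, and did not pass in any. Many alternatives could not turn these signs. The filter, the probe set rules, the variance models and the block left the values at 0.93 and 0.86. Leaving out a BMI1 hairpin left the FAL-1 change at 0.93. Both FAL-1 hairpins were above their control, so leaving out either kept that change positive. Only the control array and the normalization could have turned its sign. At a 2-fold threshold there were 0 locus genes with both FAL-1 hairpins. At the 1.5-fold threshold, leaving out a hairpin gave 1 to 1 with FAL-1 and 0 to 0 with BMI1. Such a count rests on the 1 hairpin that remains, so ECM1, past 1.5-fold with each FAL-1 hairpin, could not drop out. With a hairpin left out, the fit takes its spread from the hairpin pair of the other target. Without 1 hairpin the FAL-1 median of the 10 genes was between -0.04 and 0.03, and the BMI1 median between -0.02 and 0.03. Against the other target's control the BMI1 median was 0.049. Signs of several changes turned with the control array. Against the other target's control the FAL-1 change was -0.052 for CTSS, -0.040 for ARNT and 0.13 for RPRD2. The BMI1 change was then -0.43 for ECM1, -0.16 for ENSA, 0.088 for CTSS, 0.18 for CTSK, 0.011 for TARS2 and -0.17 for RPRD2. The difference between targets was then 0.36 for ADAMTSL4, -0.14 for CTSS and 0.30 for RPRD2. Against the mean of both controls the FAL-1 change of RPRD2 was 0.046, the BMI1 changes of ECM1, ENSA, CTSS, CTSK and RPRD2 were -0.18, -0.029, 0.010, 0.087 and -0.081, and the differences of ADAMTSL4 and RPRD2 were 0.18 and 0.13. These turns follow from the difference between the control arrays. With the hairpin number as a replicate block 0 genes were called, and 1064 with FAL-1 and 782 with BMI1 had an unadjusted p under 0.05, beside 563 and 477 without it. Hairpins of the same number share only a number; their deviations correlated at 0.275 across genes. Smaller values also changed sign when a hairpin was left out (ARNT with FAL-1, and ENSA, CTSK, SETDB1 and RPRD2 with BMI1, and the differences of ADAMTSL4, ENSA, ARNT and TARS2). So did the ADAMTSL4 difference with quantile normalization (0.015) and the BMI1 change of ENSA with its dimmest probe set (-0.0017). Lone controls could not be left out.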
